A study of Mus musculus with 40 samples.

Results

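The miR-7 family and miR-375 are microRNAs (miRNAs) known from hormone-secreting and neuropeptide cells. The 4 entries described here, mmu-miR-7a-5p, mmu-miR-7b-5p, mmu-miR-7a-1-3p and mmu-miR-375-3p, were chosen by name from the 1894 mature miRNA entries of the count table. The rule uses no measured value, though earlier results of these data were known when it was set. All 4 had counts, and each was read in 40 small RNA libraries. The libraries come from hypothalamus, brown fat, liver and gastrocnemius muscle of 10 male mice aged 8 to 12 weeks. In each tissue 5 libraries hold the streptavidin pull-down (IP) of biotinylated RNA and 5 the small RNA before the pull-down (input), which makes 8 groups of 5.

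All mice, in every group, were UCP1;UPRT mice, which carry Tg(Ucp1-cre)1Evdr/J and Tg(CAG-GFP,-Uprt)985Cdoe/J. The Ucp1 promoter, active in brown adipocytes, drives Cre, and Cre turns on UPRT, an enzyme that lets a cell build the base analogue 4-thiouracil (4TU) into new RNA. Every mouse received 4TU at 50 mg/kg by intraperitoneal injection 4 times, 48 h apart. The pull-down asks which miRNAs made in brown fat are found there and in remote tissues. The labels name no group without 4TU or without Cre, so no background of the pull-down was measured. The library names place all IPs in pool 2 and all inputs in pool 1, and no library type was split over pools, which means that pool and pull-down cannot be told apart. Levels are counts per 1000000 counted miRNA reads (CPM), and in bulk tissue fewer cells of a type and less RNA per cell cannot be told apart.

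A miRNA is cut from a hairpin with 2 arms, named 5p and 3p, and the arm that stays in the silencing complex pairs with messenger RNAs mainly through its seed, bases 2 to 8. miR-7 is known as an abundant miRNA of pancreatic islets, the pituitary and neuropeptide neurons of the hypothalamus, and the circular RNA Cdr1as carries many sites for it. miR-375 is known from pancreatic islets and pituitary cells, where it is required for normal islet cell mass and restrains insulin secretion. The mouse genome has 3 miR-7 hairpins. Mir7-1 lies at chr13:58392779-58392886 on the minus strand, in an intron of Hnrnpk, which encodes an RNA-binding protein. Mir7-2 lies at chr7:78888277-78888373 on the plus strand, in intergenic sequence 7481 bp from Aen. Mir7b lies at chr17:56242988-56243098 on the plus strand, 13712 bp from Fem1a, and Mir375 at chr1:74900658-74900721 on the minus strand, between Cfap65 and Cryba2 (build GRCm38).

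The mature sequences from RefSeq (GRCm38.p6) are shown because both guide strands share a seed, while the passenger strands tell the hairpins apart. They run 5′ to 3′ with the seed in capitals.
mmu-miR-7a-5p: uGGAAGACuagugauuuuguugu
mmu-miR-7b-5p: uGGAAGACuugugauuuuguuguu
mmu-miR-7a-1-3p: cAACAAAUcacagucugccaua
mmu-miR-7a-2-3p: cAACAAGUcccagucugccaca
The first of these is cut from Mir7-1 and from Mir7-2 alike, so its counts do not show which hairpin it came from. Over the 23 positions they share, miR-7a-5p and miR-7b-5p were identical at 22 and differed by A10U, counted from 1 at the 5′ end. The seed GGAAGAC was found in 2 of the 1610 entries with a sequence, these 2. A read that does not reach the difference can be split between them, and the deposited counts are not whole for many entries. The tables used hold no mature mmu-miR-375-3p, which is therefore named only.

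Some hypothalamus libraries stood apart. Library 5, both IP and input (mouse 9), was high in miR-375-3p and in the miR-200, miR-141 and miR-429 family of epithelial and endocrine cells: the 5 family members summed to 3160 CPM in IP 5, against 0.00 to 17.4 CPM in IPs 1 to 4, and to 13675 CPM in input 5, against 110.0 to 314.4 CPM in inputs 1 to 3. Input 4 (mouse 8) held 6700 CPM of that family, and it was the shallowest input, with 153036 counts. Its 3 striated muscle miRNAs summed to 18.9% of counts, against 0.153% to 0.256% in the other hypothalamus inputs, and the hepatocyte miRNA miR-122 to 1.71%. IP 4 of the same mouse held no count of the miR-200, miR-141 and miR-429 family and 0.322% of muscle miRNAs. The 4 neuronal markers (miR-124, both arms of miR-9 and miR-137) made up 14.2% to 14.5% of inputs 1 to 3, 3.51% of input 4 and 4.98% of input 5, so all 5 inputs held them. Many, though not all, results that use hypothalamus are therefore also given without libraries 5, or without 4 and 5, a choice made after the values were seen. Their part in the results below was not tested beyond that.

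**Figure D1:**
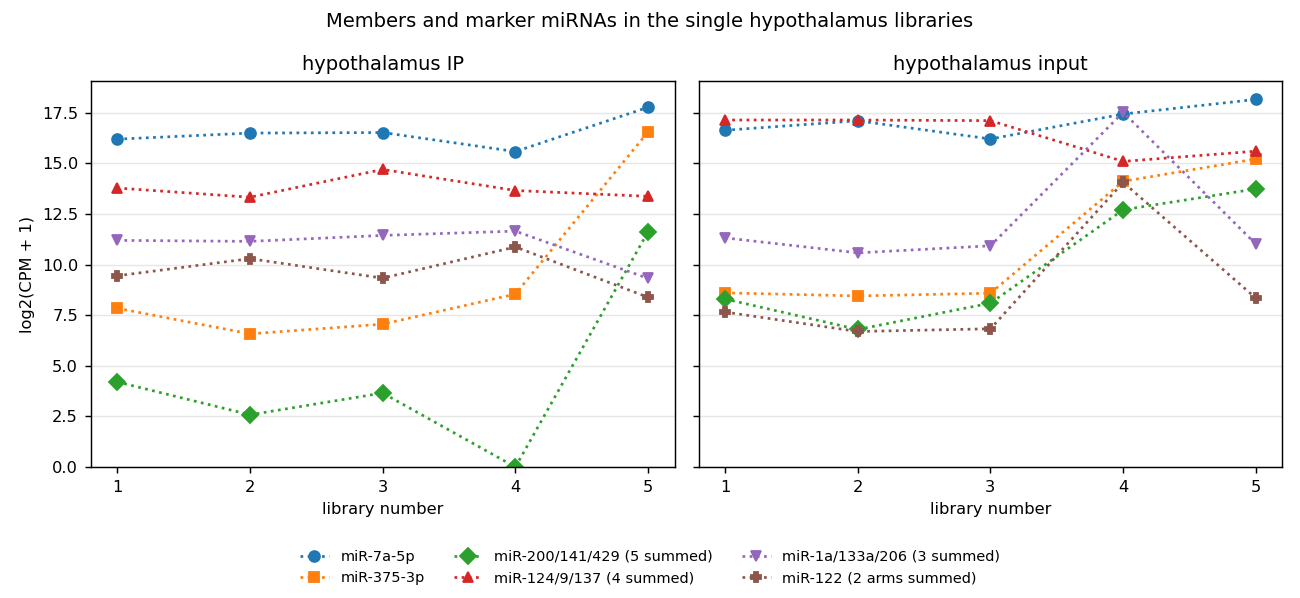
Level, as log2(CPM + 1), of miR-7a-5p, miR-375-3p and 4 summed marker groups in each of the 5 hypothalamus IP libraries (left) and 5 input libraries (right); dotted lines only join points of one series. miR-375-3p and the miR-200, miR-141 and miR-429 family stand high together in IP 5 and in inputs 4 and 5, and the muscle and liver miRNAs stand high in input 4.

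Depth ran from 11928 to 921297 counts in the IPs and from 153036 to 5562487 in the inputs, and hypothalamus input 5 was the deepest library. In the 15 IPs of brown fat, liver and muscle, miR-375-3p had 0.50 to 5.0 counts, or 0.00248% to 0.0248% of its 20174 counts in hypothalamus IP 5. In the 15 inputs of those tissues it had 224 to 735 counts, which is 0.106% to 0.346% of its 212077 counts in hypothalamus input 5. Hypothalamus inputs 1 to 3 lay in that same range, at 418 to 515 counts. miR-7b-5p in those 15 inputs had 0.131% to 0.399% of its count in hypothalamus input 5, and miR-7a-5p 0.236% to 0.450%. The totals of these 15 inputs differed 6.99-fold, while their miR-7a-5p counts differed 1.90-fold. Of the 55 entries with at least 10000 counts in hypothalamus input 5, ranked by their median count in the other tissues relative to it, miR-375-3p was the lowest, miR-7b-5p the second and miR-7a-5p the sixth. Neuronal miR-9-5p, at 0.118% to 0.467%, and miR-200c-3p, at 0.143% to 0.411%, stood between them. Thus counts of 3 members in the inputs outside the hypothalamus lay at 0.106% to 0.450% of those in 1 library of the same pool. Whether reads passed between libraries of a pool was not tested, and every level of these 3 members outside the hypothalamus is to be read beside these shares. miR-7a-1-3p differed: its 0.75 to 23 counts in the 15 inputs were 2.24% to 68.8% of the 33.4 counts in hypothalamus input 5.

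miR-7a-5p, the guide strand with 2 source hairpins, was far higher in hypothalamus inputs than in those of the other tissues. The hypothalamus inputs held 101961, 141163, 75607, 177714 and 293247 CPM, against 3030, 4651, 3626, 3296 and 5714 CPM in brown fat inputs, 4580, 5326, 4591, 6681 and 4565 CPM in liver inputs, and 931, 1202, 1075, 1380 and 1531 CPM in muscle inputs. Every hypothalamus input stood above all 15 others, without overlap. It made up 15.8% ± 8.5 of hypothalamus counts (SD, n = 5). Across the 20 inputs, in edgeR's quasi-likelihood test with Benjamini-Hochberg adjustment, the log2 fold change of hypothalamus over brown fat was 5.11 (SE 0.43, adjusted p = 5.85e-10), over liver 3.49 (SE 0.40, adjusted p = 7.29e-08) and over muscle 4.69 (SE 0.42, adjusted p = 2.00e-09). Without hypothalamus libraries 4 and 5 the 3 values were 4.11, 2.51 and 3.73, all still called.

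**Figure D2:**
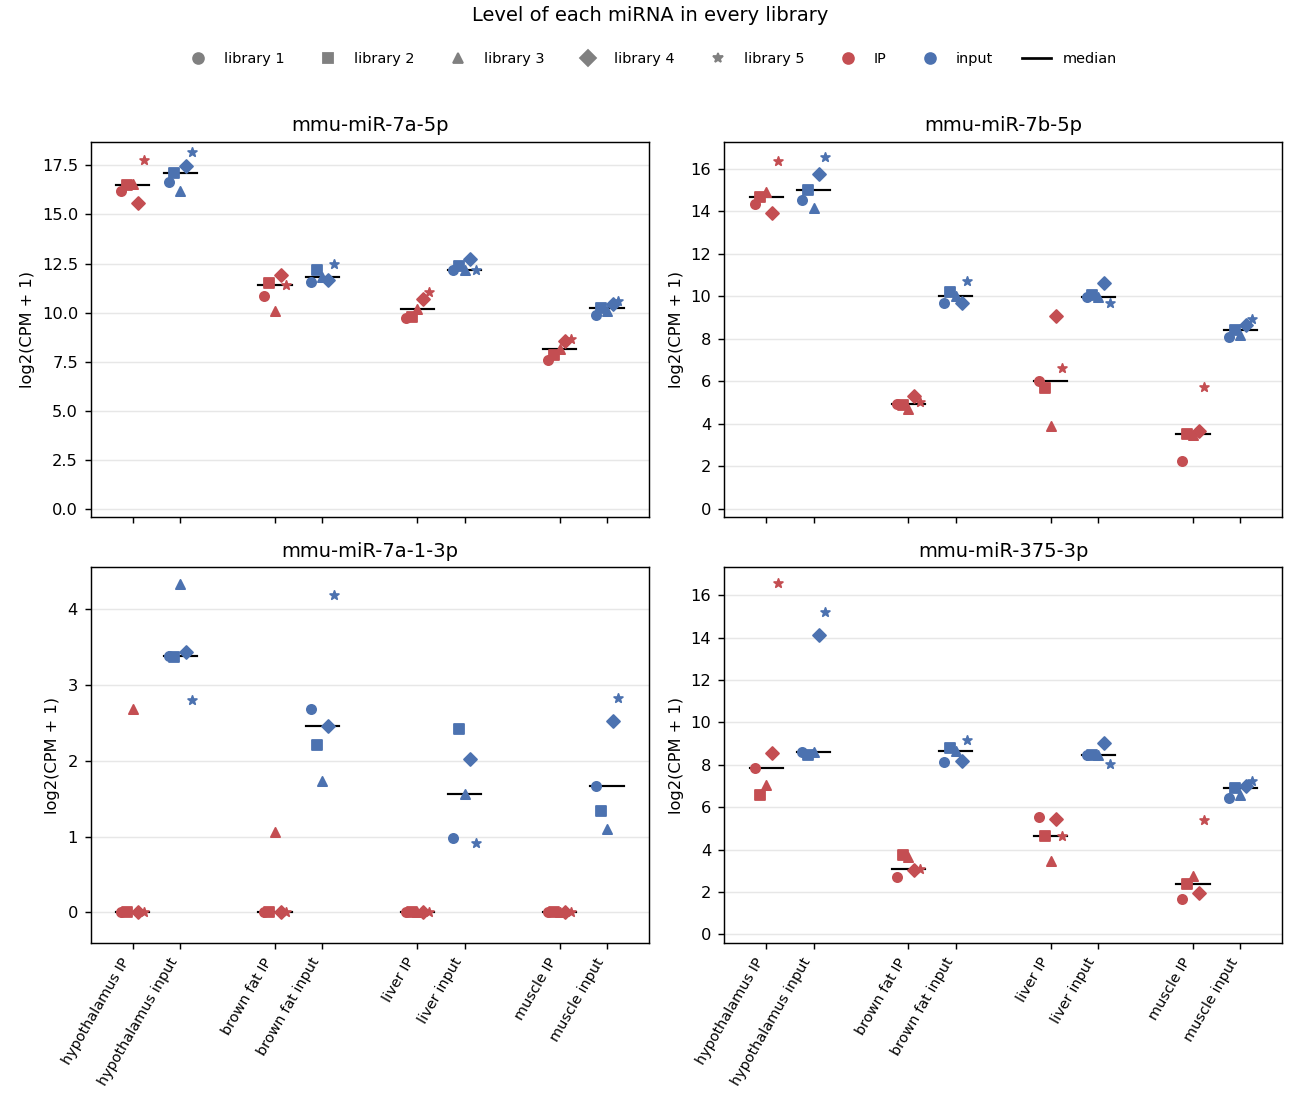
Level of each member as log2(CPM + 1) in every library, IP in red and input in blue, with a bar at the median of 5; marker shapes give the library number within its group. miR-7a-5p and miR-7b-5p stand highest in all 10 hypothalamus libraries, miR-375-3p is high in hypothalamus IP 5 and inputs 4 and 5, and miR-7a-1-3p is at 0 in most IPs.

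miR-7b-5p, which has the same seed, was likewise highest in hypothalamus inputs, at a lower level than miR-7a-5p. Hypothalamus inputs held 23404, 32381, 18435, 54705 and 96615 CPM, against 809 to 1669 CPM in brown fat, 835 to 1593 CPM in liver and 269 to 484 CPM in muscle inputs. The hypothalamus again did not overlap the other tissues. The log2 fold change was 5.23 over brown fat (SE 0.50, adjusted p = 4.28e-09), 3.97 over liver (SE 0.47, adjusted p = 1.30e-07) and 4.71 over muscle (SE 0.49, adjusted p = 1.74e-08). Without libraries 4 and 5 these were 3.89, 2.65 and 3.41. Of the 444 entries tested, 48.9% were called higher in hypothalamus than in brown fat, 48.9% than in liver and 52% than in muscle, and 3 of the 4 members were called higher in each of the 3 comparisons.

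miR-375-3p, the third of these, rested on single libraries. Hypothalamus inputs held 388, 349, 384, 17733 and 38126 CPM, against 280 to 572 CPM in brown fat, 265 to 513 CPM in liver and 85.2 to 148 CPM in muscle inputs. Libraries 4 and 5 were far above all others, and libraries 1 to 3 lay within the range of brown fat and liver and above that of muscle. Input 5 alone held 98.1% of the counts summed over the 5 hypothalamus inputs. With all libraries the log2 fold change was 4.90 over brown fat (SE 1.09, adjusted p = 0.000309), 3.74 over liver (SE 1.03, adjusted p = 0.00243) and 4.55 over muscle (SE 1.07, adjusted p = 0.000593). Without libraries 4 and 5 all 3 turned negative, at -0.69 (adjusted p = 0.00306), -1.83 (adjusted p = 4.87e-08) and -1.01 (adjusted p = 0.000106). These values hold for the scaling of the main test, and the fit without those libraries was not run with another. In CPM libraries 1 to 3 lay above all muscle inputs, against the sign of -1.01. With all libraries, total count as scaling moved the median of all entries over muscle by 2.54. With the mouse as a block in the model, which pairs samples of the same animal, the 3 values from all libraries were 2.28 (adjusted p = 0.212), 2.09 (adjusted p = 0.321) and 3.25 (adjusted p = 0.0829), so none was called. In libraries 1 to 3 the ratio of miR-375-3p to miR-7b-5p was 0.0166, 0.0108 and 0.0208, against 0.324 and 0.395 in libraries 4 and 5 and 0.305 to 0.384 in the 15 inputs of the other tissues. The other tissues thus matched library 5 in this ratio more closely than hypothalamus libraries 1 to 3 did. The opposite arm, miR-375-5p, had 0 counts in all 40 libraries of every tissue.

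miR-7a-1-3p, the passenger strand of Mir7-1 alone, was not called between hypothalamus and any other tissue. Hypothalamus inputs held 9.42, 9.36, 19.2, 9.80 and 6.01 CPM, against 2.34 to 17.3 CPM in brown fat, 0.888 to 4.35 CPM in liver and 1.15 to 6.13 CPM in muscle inputs. In CPM the hypothalamus overlapped brown fat, and narrowly muscle, and lay above liver without overlap. These levels rest on 0.75 to 33.4 counts a library. The log2 fold change was 0.20 over brown fat (SE 0.44, adjusted p = 0.675), 0.44 over liver (SE 0.57, adjusted p = 0.476) and -0.80 over muscle (SE 0.43, adjusted p = 0.0917). None was called, and the approximate 95% interval over brown fat, from the SE, was -0.67 to 1.07. The scaling matters for this member: with total count instead of the trimmed mean of M values (TMM), the value over liver was 2.18 and that over muscle 1.75, both called. Under that scaling the median of all entries moved by 1.60 and 2.54.

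The passenger strand of the other hairpin, miR-7a-2-3p, was chosen for a count after its values were seen. Set beside miR-7a-1-3p within a library, it gives a ratio of Mir7-2 to Mir7-1 passenger reads that needs no scaling. Whether both strands are kept and captured equally was not tested. In the hypothalamus inputs 37 of 49, 52 of 63, 66 of 90, 4 of 6 and 345 of 378 passenger reads came from Mir7-2. In sum this was 504 of 586, or 86.0% (95% exact interval 82.9% to 88.7%), against 5 of 53 in brown fat (9.43%, 3.13% to 20.7%), 1 of 12 in liver (8.33%, 0.211% to 38.5%) and 6 of 72 in muscle (8.33%, 3.12% to 17.3%). Mir7-2 reads were the more frequent in 5 of 5 hypothalamus inputs and in 0 of 15 others. The mean log2 ratio, with 0.5 added to each count, was 1.95 ± 0.86 in hypothalamus (SD, n = 5) and -2.20 ± 1.19 in the other inputs (SD, n = 15), a difference of 4.15. Because the entry was picked with its values known, this is a description with no test. The 15 other inputs come from 10 mice, and all 5 hypothalamus mice are among them. The hypothalamus IPs held 60 of 61 such reads from Mir7-2 (98.4%, 91.2% to 100%). Without molecular identifiers PCR copies are counted as reads, and the intervals cover counting error only.

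**Figure D3:**
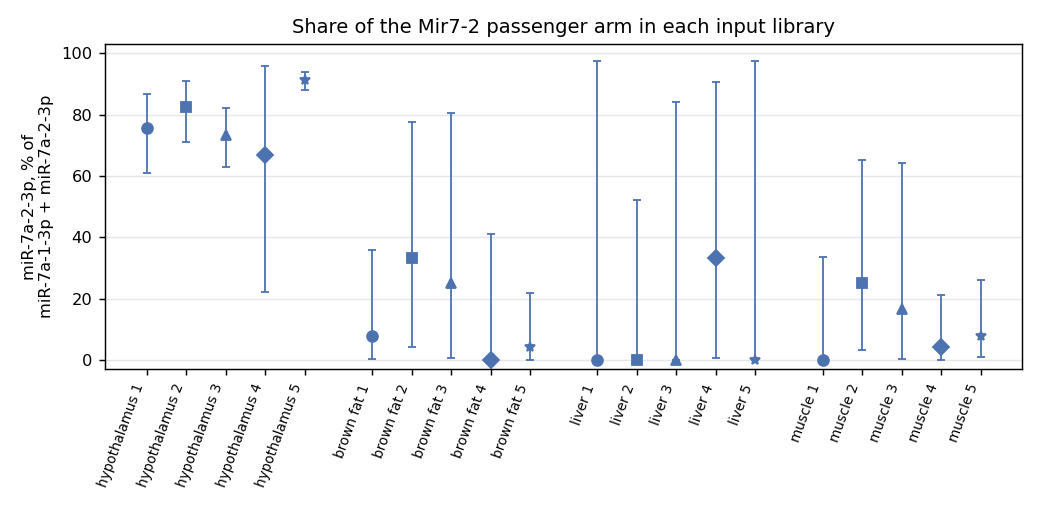
Share of miR-7a-2-3p among the reads of miR-7a-1-3p and miR-7a-2-3p in each of the 20 input libraries, in percent, with exact 95% binomial intervals (counting error only). The 5 hypothalamus inputs sit at 66.7% to 91.3% and the other 15 at or below 33.3%.

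Outside the hypothalamus the order of the inputs depended on the scaling. In CPM, miR-7a-5p ran from muscle up to brown fat and liver, and miR-7b-5p and miR-375-3p had brown fat and liver overlapping above muscle. On the TMM scale miR-7a-5p was lower in brown fat than in liver (-1.62, SE 0.37, adjusted p = 0.0011) and higher in liver than in muscle (1.2, SE 0.37, adjusted p = 0.00868), and miR-7b-5p was lower in brown fat than in liver (-1.27, SE 0.42, adjusted p = 0.0191). The other 9 contrasts among these tissues were not called, and 45.9%, 40.1% and 54.7% of entries were called in brown fat over liver, brown fat over muscle and liver over muscle. Between brown fat and muscle the sign of miR-7a-5p was -0.42 with TMM and 1.73 (adjusted p = 4.02e-05) with total count. With the mouse block, -0.99 (adjusted p = 0.201), 1.15 (adjusted p = 0.074) and -0.62 (adjusted p = 0.464) were left of the 3 called values.

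In the pull-down, miR-7b-5p and miR-375-3p were lower than in the input in every tissue but hypothalamus. miR-7b-5p had 29.1, 28.2, 24.7, 38 and 31.1 CPM in brown fat IPs, against 809, 1195, 1030, 812 and 1669 CPM in brown fat inputs. The groups lay far apart (log2 fold change -4.03, SE 0.28, adjusted p = 5.92e-09). In liver it had 63.5, 50.7, 13.8, 544.9 and 96.3 CPM in IPs, against 835 to 1593 CPM in inputs (-2.43, SE 0.44, adjusted p = 2.82e-05). Liver IP 4, the high one, is the shallowest library, with 11928 counts in all and 6.5 for this miRNA. In muscle it had 3.80 to 52.3 CPM in IPs, against 269 to 484 CPM in inputs (-4.00, SE 0.33, adjusted p = 1.25e-10). All IPs lay below all inputs in these 3 tissues.

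miR-375-3p behaved alike. It had 5.51, 12.5, 11.5, 7.12 and 7.5 CPM in brown fat IPs, against 280, 446, 396, 288 and 572 CPM in inputs (-4.33, SE 0.35, adjusted p = 1.26e-08). In liver it had 10.1 to 45.4 CPM in IPs, against 265 to 513 CPM in inputs (-2.45, SE 0.45, adjusted p = 2.82e-05), and in muscle 2.17 to 40.9 CPM in IPs, against 85.2 to 148 CPM in inputs (-3.47, SE 0.39, adjusted p = 1.74e-08). No group overlapped its partner. These IP levels rest on 0.50 to 5.0 counts a library. Of all entries tested, 43.3% were called lower in the brown fat IP, 46% in the liver IP and 56.3% in the muscle IP, and of the 3 members tested 2, 2 and 3 were. The input levels in these comparisons are those that lay at 0.106% to 0.399% of the counts in hypothalamus input 5, and the part of this in the lower IP levels was not tested.

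miR-7a-5p differed from its family partner. It had 1830, 2952, 1079, 3868 and 2694 CPM in brown fat IPs, against 3030, 4651, 3626, 3296 and 5714 CPM in inputs. The groups overlapped, and the log2 fold change was 0.39 (SE 0.28, adjusted p = 0.205) with TMM and -0.71 with total count, neither called. In liver it had 839, 876, 1169, 1659 and 2109 CPM in IPs, against 4565 to 6681 CPM in inputs. These did not overlap, yet the TMM value was -0.46 (SE 0.41, adjusted p = 0.304), while RLE scaling gave -1.36 (adjusted p = 0.000494). Leaving out any 1 of the 5 liver inputs gave -1.32 to -1.13, called each time. In muscle it had 192 to 405 CPM in IPs, against 931 to 1531 CPM in inputs, and was lower by every scaling (-1.24 with TMM, SE 0.31, adjusted p = 0.000683). With RLE the median of all entries moved by -0.33 in brown fat, -0.93 in liver and -0.53 in muscle, and with total count by -1.10, -1.61 and -0.87.

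**Figure D4:**
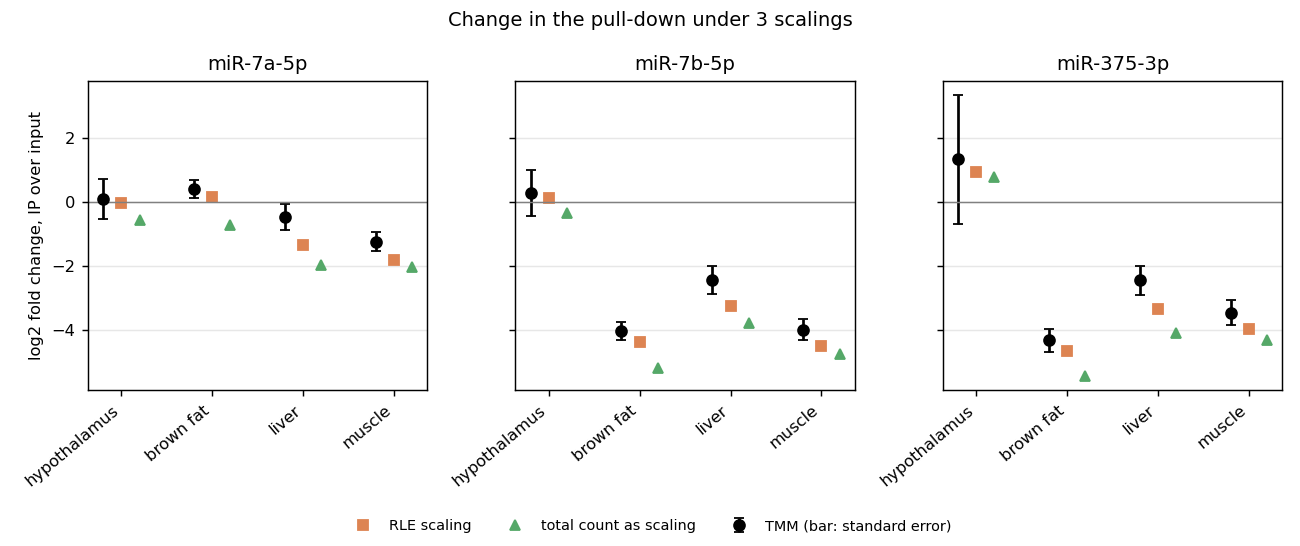
Log2 fold change of IP over input for the 3 members tested, in each tissue, with TMM (circle, bar for the standard error), RLE (square) and total count (triangle). miR-7b-5p and miR-375-3p are below 0 in brown fat, liver and muscle under all 3 scalings, while the sign of miR-7a-5p in brown fat turns with total count.

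The ratio of miR-7a-5p to miR-7b-5p within a library needs no scaling. It was 63.0, 105, 43.7, 102 and 86.7 in brown fat IPs, against 3.75, 3.89, 3.52, 4.06 and 3.42 in brown fat inputs. The difference of mean log2 ratios was 4.28 (exact permutation test, two-sided, p = 0.00794, adjusted over 4 tissues 0.0159), and 0.00794 is the smallest p this unpaired test allows. The test treats libraries as independent, though most pairs of IP and input share a mouse. In muscle the ratio was 50.6, 22.1, 28.6, 33.0 and 7.74 in IPs, against 3.16 to 3.74 in inputs, a difference of 2.66 (exact p = 0.00794, adjusted 0.0159). In liver it was 13.2, 17.3, 84.8, 3.04 and 21.9 in IPs, against 4.19 to 5.47 in inputs, and the difference of 1.74 did not pass after adjustment (exact p = 0.0476, adjusted 0.0635). In hypothalamus it was 2.62 to 3.56 in IPs and 3.04 to 4.36 in inputs (-0.25, exact p = 0.103). Within the 5 hypothalamus mice the IP ratio lay below its own input each time, by -0.41 to -0.05, and the paired exact p of 0.0625 is the smallest that 5 pairs allow. It lay above its input in 4 of 4 brown fat pairs, 4 of 5 liver pairs and 5 of 5 muscle pairs. The paired exact p was 0.125 in brown fat and 0.0625 in muscle, each the smallest its pairs allow. In liver it was 0.125, above the smallest possible 0.0625, and the pairs ran from -0.53 to 4.09. So the 2 miRNAs, which differ by 1 base and in length, stood at ratios of 3.04 to 5.47 in all inputs and 2.62 to 3.56 in the hypothalamus IPs, while miR-7a-5p was in larger excess in brown fat and muscle IPs. Those IP ratios rest on 6.75 to 23.75 counts of miR-7b-5p a library in brown fat, 6.12 to 20 in liver and 3.5 to 7.5 in muscle. Input counts of both guides in these tissues lay at 0.131% to 0.450% of those in hypothalamus input 5, whose ratio was 3.04. The part of this in the input ratios was not tested. Leaving out 1 library at a time, the liver difference ran from 1.16 to 2.35 (unadjusted exact p 0.0159 to 0.0952), highest without liver IP 4. The hypothalamus difference ran from -0.33 to -0.18 (unadjusted exact p 0.0476 to 0.206), lowest without hypothalamus input 5. This ratio was chosen after earlier values were known, so its p-values are no independent test.

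**Figure D5:**
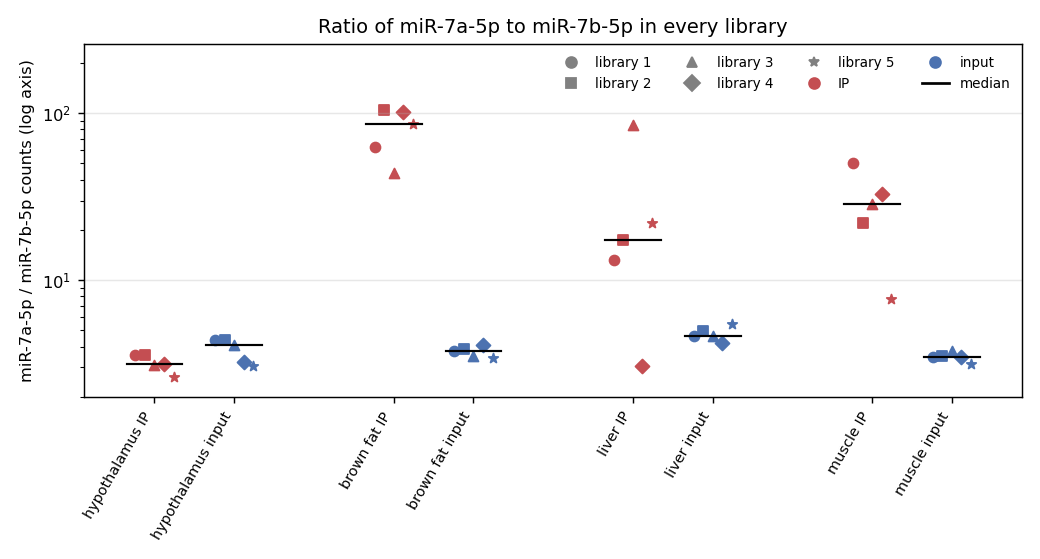
Ratio of miR-7a-5p to miR-7b-5p counts in every library on a log axis, IP in red and input in blue, with a bar at the median of 5. All 20 inputs lie between 3.04 and 5.47, and brown fat IPs lie between 43.7 and 105.

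In the hypothalamus no member was called between IP and input, where 75.5% of the 273 entries tested were called in either direction. miR-7a-5p had 75180, 92575, 94294, 49178 and 224089 CPM in IPs, against 75607 to 293247 CPM in inputs (0.10, SE 0.63, adjusted p = 0.892, approximate 95% interval -1.14 to 1.34). miR-7b-5p had 21090, 25992, 30535, 15625 and 85370 CPM in IPs, against 18435 to 96615 CPM in inputs (0.28, SE 0.72, adjusted p = 0.728). Both overlapped widely, and the sign of both turned with total count (-0.57 and -0.34). Without libraries 4 and 5, both were called higher in the IP (1.04, adjusted p = 0.0477, and 1.37, adjusted p = 0.00854). miR-375-3p had 229, 94.6, 132, 372 and 96614 CPM in IPs, against 388, 349, 384, 17733 and 38126 CPM in inputs, and IP 5 held 99.4% of the summed IP counts. Its value was 1.33 (SE 2.01, adjusted p = 0.554), -4.07 (adjusted p = 0.0278) without libraries 5, -5.74 (adjusted p = 0.0108) without IP 5 alone, and -0.01 without 4 and 5. miR-7a-5p made up 10.7% ± 6.79 of hypothalamus IP counts (SD, n = 5).

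miR-7a-1-3p was too rare in the IPs to be tested. Summed over 5 libraries it had 1 count in hypothalamus IPs (1.17 before rounding), against 82 in inputs, 7.12-fold lower in CPM (95% interval of the counts 1.24 to 284). After rounding it had 0 counts in brown fat IPs (0.33 as deposited), against 48 in inputs, which is at least 4.52-fold lower when 3 counts over the group are taken as the limit. In muscle IPs it had 0 counts, against 66 in inputs, at least 2.57-fold lower. In liver it had 0 counts in IPs and 11 in inputs, where the limit allows no fold. These values scale by total count, and the limits in brown fat and muscle take the input counts as exact. Under that scaling the median log2 change of all entries tested was -1.84 in the hypothalamus IP, -1.44 in brown fat and -2.29 in muscle. The folds are to be read beside this fall of all entries, and whether miR-7a-1-3p fell further was not tested. miR-7a-2-3p was called higher in hypothalamus IPs than inputs (1.49, SE 0.49, adjusted p = 0.0141), but not without libraries 4 and 5.

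The IPs of the tissues were compared with each other as well. miR-7b-5p was higher in hypothalamus IPs than in IPs from brown fat (log2 difference 8.95, SE 0.74, adjusted p = 1.25e-13), from liver (6.88, SE 0.69, adjusted p = 2.86e-11) and from muscle (8.61, SE 0.74, adjusted p = 3.71e-13). miR-7a-5p was higher by 4.25, 4.06 and 5.73, and miR-375-3p by 9.74, 7.51 and 8.75, the last set falling to 3.21, 1.05 and 2.20 without libraries 5, with 1.05 over the liver IP no longer called (adjusted p = 0.0959). Of the 209 entries tested, 33%, 37.3% and 35.9% were called higher, and all 3 members tested were. Without libraries 4 and 5 the shares were 47.6%, 48.9% and 50.6% of 231 entries, and all 3 members were still called higher. Between the other IPs, miR-7b-5p was lower in brown fat than in liver (-2.07, adjusted p = 0.00458), miR-7a-5p higher in brown fat than in muscle (1.48, adjusted p = 0.0429) and in liver than in muscle (1.68, adjusted p = 0.0272), and miR-7b-5p higher in liver than in muscle (1.74, adjusted p = 0.0272). In these 3 comparisons 45.5%, 41.1% and 33% of entries were called in either direction. With the mouse block the 3 values over muscle were no longer called, at 0.46, 0.21 and 1.18 (adjusted p = 0.773, 0.961 and 0.335). They also lost their call in 9, 8 and 9 of the 10 fits that left out 1 library, and both liver values were lowest without liver IP 5, at 0.94 and 0.91. The value of miR-7b-5p in brown fat over liver was -1.26 (adjusted p = 0.101) without that library.

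Whether the change in the IP differed between hypothalamus and the other tissues was tested as an interaction over 20 libraries. miR-7b-5p differed in each case, with hypothalamus minus brown fat at 6.19 (SE 0.82, adjusted p = 1.47e-05), minus liver at 4.25 (SE 0.91, adjusted p = 0.00229) and minus muscle at 5.45 (SE 0.81, adjusted p = 0.000184). Without libraries 4 and 5 these were 3.47, 4.93 and 6.11, all called, and leaving out 1 library at a time the first ran from 2.28 to 6.34. The value minus liver was 2.83 and not called with RLE (adjusted p = 0.076). miR-375-3p gave 7.46 minus brown fat (SE 2.34, adjusted p = 0.0201), which was -2.57 without hypothalamus IP 5 and lost its call in 17 of the 20 fits without 1 library. Its 5.31 and 5.90 minus liver and muscle were not called, and with the mouse block were 4.28 (adjusted p = 0.0348) and 4.92 (adjusted p = 0.0474). miR-7a-5p gave 1.64 minus brown fat (adjusted p = 0.0713), 2.26 minus liver (adjusted p = 0.0389) and 2.57 minus muscle (adjusted p = 0.0163). Those 2 called values were not called with RLE (0.90 and 1.57) or with total count (1.40 and 1.49), and each was 1.86 and not called without hypothalamus IP 5. Of the 20 fits without 1 library, 5 ended the call minus liver and 6 that minus muscle. The value minus brown fat was 1.83 with the mouse block (adjusted p = 0.0327), yet negative, at -2.19 to -1.30, in 17 of the 20 fits without 1 library. Of all entries, 32.2%, 24.7% and 13.5% were called higher in the 3 interactions, of the 3 members 2, 2 and 2. These shares stand for 136, 80 and 55 entries, against 36, 3 and 4 with RLE, and leaving out 1 library the first ran from 1 to 132 and the third from 13 to 63, so these counts depend on the scaling and on single libraries.

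Other miRNAs of the same circuits were read from 3 lists. Of the 5 entries that share hairpins with the members or act on Cdr1as, 3 were tested in the inputs. miR-671, of which the 5p arm directs the slicing of Cdr1as, was present as miR-671-3p at 19.6 to 131 CPM in hypothalamus inputs, against 26.7 to 75.9 CPM in brown fat, 49.5 to 77.3 CPM in liver and 8.00 to 17.8 CPM in muscle inputs. The 5p arm itself was at 14.9 to 46.7 CPM in hypothalamus inputs, against 6.83 to 20.8 CPM in brown fat, 2.65 to 8.88 CPM in liver and 0.805 to 4.13 CPM in muscle inputs, and was called over muscle alone (0.80, SE 0.36, adjusted p = 0.0474). On the TMM scale miR-671-3p was the higher in brown fat IPs, against brown fat inputs (2.07, SE 0.37, adjusted p = 6.56e-05), in liver IPs (1.45, SE 0.37, adjusted p = 0.00111) and in muscle IPs (1.04, SE 0.38, adjusted p = 0.0151), and was at 0.04 (SE 0.45, adjusted p = 0.933) in the hypothalamus. In CPM its IPs and inputs overlapped in each tissue. The IP and input medians were 58.4 and 36.2 CPM in brown fat, 59.0 and 58.9 in liver and 11.5 and 12.8 in muscle. Liver IPs held 4.38 to 26.55 counts a library and muscle IPs 4.0 to 8.0, so the higher values there depend on the scaling. Of 12 other miRNAs known from islet or pituitary cells, 11 were tested in the inputs, of which 8, 5 and 11 were higher in hypothalamus than in brown fat, liver and muscle, and 1, 0 and 0 lower. Over all entries 48.9%, 48.9% and 52% were higher. Their medians were 4.59, 1.57 and 4.24, against 0.62, 0.90 and 0.83 over all entries. Without libraries 4 and 5 only 3 of 11 were higher in each comparison, while 5, 8 and 2 were lower, and the medians were -0.06, -2.78 and -0.07. Over all entries of those fits 48.7%, 49.5% and 49.7% were higher and 37.3%, 33.7% and 30.6% lower, with medians of 0.53, 0.77 and 0.74. miR-200c-3p was higher by 4.75 over brown fat (SE 1.10, adjusted p = 0.000443), and miR-182-5p lower by -2.79 (SE 0.76, adjusted p = 0.00192). The miR-200 members of this list were high in the same inputs as miR-375-3p: miR-200a-3p had 7074 CPM in input 5 against a median of 184 CPM.

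The 8 neuronal miRNAs were all higher in hypothalamus inputs than in each other tissue, with medians of 5.75, 5.45 and 6.04, and all 8 stayed called without libraries 4 and 5. Over all entries 48.9%, 48.9% and 52% were called higher, with medians of 0.62, 0.90 and 0.83. Without libraries 4 and 5 the shares called higher were 48.7%, 49.5% and 49.7%. miR-9-5p, a regulator of neuronal progenitors, was higher by 6.71 over brown fat (SE 0.33, adjusted p = 1.89e-13), and miR-124-3p, a miRNA known from neurons, by 7.34 (SE 0.40, adjusted p = 6.77e-13). In the hypothalamus IP 7 of these 8 were lower than in the input and none higher, where 47.3% of all entries were lower, with a median of -2.11 against -1.04 over all entries. miR-124-3p changed by -2.44 (SE 0.55, adjusted p = 0.00167), miR-9-5p by -1.79 (SE 0.39, adjusted p = 0.00131) and miR-128-3p by -0.99 (SE 0.35, adjusted p = 0.0214). The eighth, miR-129-5p, named after its value was seen, was at 0.40 (SE 0.33, adjusted p = 0.286). In that comparison miR-7a-5p and miR-7b-5p stood at 0.10 and 0.28, below miR-129-5p and above the other 7. In the brown fat IP the neuronal list had 1 higher and 4 lower of 6 tested, in liver 0 and 3 of 5, and in muscle 0 and 5 of 5. The islet and pituitary list had 1 higher and 5 lower of 7 in the brown fat IP, 0 and 3 of 4 in liver, 0 and 4 of 4 in muscle, and 0 and 2 of 5 in hypothalamus. Over all entries 43.3% were lower in the brown fat IP, 46% in liver, 56.3% in muscle and 47.3% in hypothalamus, so that 3 of 5 in liver and 2 of 5 in hypothalamus are near the share over all entries. Called higher, in the same order, were 36.7%, 28.5%, 28.7% and 28.2% of all entries.

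The share of U, the base that 4TU replaces, is high in both guides: 43.5% of miR-7a-5p (10 of 23 bases) and 50.0% of miR-7b-5p (12 of 24), against a median of 27.3% over the entries with a sequence tested in the brown fat IP. Of those 266 entries, 2 had a higher share than miR-7b-5p. miR-7b-5p, the one richer in U, was the one with the lower IP value in brown fat, liver and muscle. Across entries the Spearman correlation of the U share with the change in the IP was 0.059 in brown fat, 0.15 in liver, 0.12 in muscle and -0.043 in hypothalamus, and that of the GC share 0.39, 0.40, 0.35 and 0.43. Entries are not independent, and these are descriptions.

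The patterns most like each member over the 20 inputs were ranked by Pearson correlation of log2(CPM + 1) among 285 entries with a mean of at least 100 CPM in 1 tissue. The 20 points share tissue, pool and the depth differences above. miR-7a-5p and miR-7b-5p correlated at 0.996 with each other. The entries nearest to miR-7a-5p were miR-132-5p, miR-335-3p, miR-543-3p, miR-344-3p and miR-370-3p, at 0.971 to 0.976, and miR-132-5p, miR-381-3p, miR-217-5p, miR-672-5p and miR-382-3p were nearest to miR-7b-5p, at 0.971 to 0.979. Without hypothalamus inputs 4 and 5 most of these were replaced: miR-409-3p, miR-598-3p, miR-485-3p, miR-344-3p and miR-92b-3p were nearest to miR-7a-5p (0.978 to 0.986), and miR-598-3p, miR-344-3p, miR-9-5p, miR-370-3p and miR-485-3p to miR-7b-5p (0.985 to 0.99). For miR-375-3p they were miR-200c-3p (0.989), miR-141-3p (0.981), miR-429-3p (0.923), miR-200a-3p (0.904) and miR-3535 (0.892). Without hypothalamus inputs 4 and 5, miR-200c-3p was still the nearest, at 0.932, but the next were miR-221-3p, let-7a-5p, miR-423-3p and let-7a-1-3p, at 0.903 to 0.907. For miR-7a-1-3p the nearest were miR-3065-5p and miR-338-3p, both at 0.811, then miR-29c-3p, miR-138-5p and miR-186-5p at 0.793 to 0.796.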

How the data were processed

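Small RNA libraries from 40 samples were analysed from 1 table of expected counts, estimated counts per mature miRNA deposited by the authors. Per the submitters' processing notes, fastp, STAR, featureCounts and the build mm10 were used; not given in the sources used here: tool versions, annotation, strandedness and the handling of multiple matches. Of the positive values 18.9% were whole within 0.001. Rounding to whole counts moved no library total by more than 0.13%.

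The 4 members, the lists and the tests were chosen with earlier results of these data known. Tests used the quasi-likelihood test of edgeR 4.0.16 in R 4.3.3 (TMM scaling, filterByExpr by group, Benjamini-Hochberg adjusted p under 0.05 over all entries tested, two-sided): IP against input from the 10 libraries of a tissue, tissues from the 20 inputs or 20 IPs, and interactions from 20 libraries. The script was tested on simulated data. SE values derive from the test statistic, and intervals from the SE. The 7a to 7b ratio used exact permutation tests. Replicates are separate mice.

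By the labels 19 of the same-numbered IP and input libraries of a tissue come from the same mouse, and brown fat 5 joins mice 8 and 10, so the numbers pair the samples. Their correlation after removing group means ran from -0.099 to 0.74, median 0.15, and was over 0.1 in 13 of 19. The block was planned as an alternative. Alternatives were RLE, total count, no filter, a mean of at least 10 CPM, DESeq2 1.42.0, the mouse block, all 40 libraries in 1 fit, both miR-7 guides summed, each library left out, and, added after seeing the data, the 7a to 7b ratio within mice, and hypothalamus without libraries 5 or without 4 and 5. The text names all members, the 5 entries most like each, and up to 4 entries a list with the highest mean CPM; list members beyond these were not named, though not all selected are printed.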

Additional observations from a re-analysis of the deposited data

Results flagged for a closer look

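A library was marked when its gap to the nearest of the other 4 in its group, divided by the group's range, was over the 95% critical value of Dixon's test (0.71 for 5 samples). Of the 30 groups of 5 whose values were not all 0, 10 had such a library. The critical value holds for normal values and was applied to CPM, many from few counts, so no chance rate is set beside it. In the hypothalamus IPs, library 5 was far above the rest for miR-7a-5p (224089 CPM), miR-7b-5p (85370 CPM) and miR-375-3p (96614 CPM). In the liver IPs, library 4 was high in miR-7b-5p, at 544.9 CPM from 6.5 counts. In the muscle IPs, library 5 was high in miR-7b-5p (52.3 CPM) and miR-375-3p (40.9 CPM), from 5.75 and 4.5 counts. For miR-7a-1-3p the marked libraries were brown fat IP 3 (1.09 CPM), hypothalamus IP 3 (5.42 CPM), brown fat input 5 (17.3 CPM) and hypothalamus input 3 (19.2 CPM), and both IP values come from under 2 counts. In both of these IP groups the other 4 libraries were at 0, where any count is marked.

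The change in the IP differed between hypothalamus and another tissue, by the interaction test of edgeR, in 6 cases. miR-7b-5p differed by 6.19 from brown fat, by 4.25 from liver and by 5.45 from muscle. miR-375-3p differed by 7.46 from brown fat, and miR-7a-5p by 2.26 from liver and by 2.57 from muscle. The miR-375-3p value was -2.57 without hypothalamus IP 5. Both miR-7a-5p values were not called with RLE or total count, and that of miR-7b-5p from liver was not called with RLE.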

How the results depend on the processing

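The higher level of miR-7a-5p and miR-7b-5p in hypothalamus inputs over each other tissue, and the lower miR-7b-5p in the IPs of brown fat, liver and muscle, kept their direction and call under every alternative run for them. With total count as scaling, values that changed sign or call were miR-7a-5p in the brown fat IP (-0.71), liver IP (-1.97) and hypothalamus IP (-0.57), and miR-7b-5p in the hypothalamus IP (-0.34). In the inputs they were miR-7a-1-3p in hypothalamus over liver (2.18) and muscle (1.75), miR-7b-5p and miR-375-3p in brown fat over liver (0.01 and 0.12), and miR-7a-5p, miR-7b-5p, miR-7a-1-3p and miR-375-3p in brown fat over muscle (1.73, 1.63, 1.08 and 1.79). In the IPs they were miR-7a-5p in brown fat over liver (0.91) and miR-7b-5p and miR-375-3p in brown fat over muscle (1.06 and 0.50). For interactions, hypothalamus minus another tissue, they were miR-375-3p minus brown fat (6.18), and miR-7a-5p minus liver and muscle (1.40 and 1.49). With RLE scaling they were miR-7a-5p in the liver IP (-1.36) and hypothalamus IP (-0.03), miR-7a-1-3p in hypothalamus over muscle inputs (-1.15), and the interactions of miR-375-3p minus brown fat (6.03), miR-7a-5p minus liver and muscle (0.90 and 1.57) and miR-7b-5p minus liver (2.83). DESeq2 gave -1.35 for miR-7a-5p in the liver IP, -0.03 in the hypothalamus IP, -1.15 for miR-7a-1-3p over muscle inputs, and 0.90 and 1.57 for miR-7a-5p minus liver and muscle.

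With no filter, miR-7a-5p gave -0.05 in the brown fat IP, -1.26 in the liver IP (called), -0.55 in the hypothalamus IP and 1.90 minus liver, miR-7b-5p -0.35 in the hypothalamus IP, and miR-375-3p 5.03 and 6.12 minus liver and muscle (called). With a mean of at least 10 CPM, miR-7a-5p gave -1.47 in the liver IP (called) and 0.11 in the brown fat IP over the liver IP. With all 40 libraries in 1 fit, miR-375-3p gave -2.71 in the liver IP and -3.23 in the muscle IP, no longer called, and miR-7a-5p gave -0.20, 0.91 and 1.21 minus brown fat, liver and muscle. With the replicate block by mouse, miR-375-3p gave -0.48 in the hypothalamus IP, 2.28, 2.09 and 3.25 in hypothalamus inputs over brown fat, liver and muscle, 0.97 in brown fat over muscle inputs and 0.79 over muscle IPs, and called values of 4.28 and 4.92 minus liver and muscle. miR-7a-1-3p gave -0.07 in hypothalamus over liver inputs and -0.34 in brown fat over liver inputs, miR-7a-5p 0.16 in brown fat over muscle inputs, 0.25 in brown fat over liver IPs and 1.83 minus brown fat (called), and miR-7b-5p 0.18 in brown fat over muscle inputs. The block turned no called value to the other sign, and beside these values and those given with the results above it changed no other call.

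Without hypothalamus libraries 5, miR-375-3p gave -4.07 in the hypothalamus IP, -0.91 minus brown fat and -0.03 minus liver, and miR-7a-5p -1.60 minus brown fat. Without libraries 4 and 5, miR-7a-5p and miR-7b-5p gave 1.04 and 1.37 in the hypothalamus IP (called), miR-375-3p -0.01 there, -0.69, -1.83 and -1.01 in hypothalamus over brown fat, liver and muscle inputs and 3.65 and 4.24 minus liver and muscle (called), and miR-7a-5p -1.31 minus brown fat. Leaving out 1 library at a time, the hypothalamus IP ran from -0.60 to 0.81 for miR-7a-5p, -0.59 to 1.10 for miR-7b-5p and -5.74 to 2.58 for miR-375-3p, and miR-7a-5p in the liver IP from -1.32 to -0.27. miR-7a-1-3p ran from -0.05 to 0.68 in hypothalamus over brown fat inputs, -1.02 to -0.49 over muscle inputs and -0.26 to 0.65 in brown fat over liver inputs, and miR-7a-5p from -0.28 to 0.55 in brown fat over liver IPs. The interactions minus brown fat, liver and muscle ran from -2.19 to 1.81, 1.86 to 2.81 and 1.86 to 3.11 for miR-7a-5p, and -2.57 to 7.60, -1.33 to 6.78 and -1.22 to 7.36 for miR-375-3p, each lowest without hypothalamus IP 5.

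In IP against input and in hypothalamus over other inputs, counts of entries called changed by over 1.5 times in these cases. With total count, 55 entries were higher in the brown fat IP and 29 in the liver IP, 58 lower in hypothalamus over liver inputs, and 358 higher and 39 lower over muscle inputs. With no filter, 181 were higher and 220 lower in the brown fat IP, 166 lower in the liver IP, 245 lower in the muscle IP, 132 higher and 259 lower in the hypothalamus IP, and 367 and 358 higher in hypothalamus over brown fat and muscle inputs. With a mean of at least 10 CPM, 149 were lower in the liver IP, 96 lower in the muscle IP and 120 higher in the hypothalamus IP. With all 40 libraries, 121 were higher and 208 lower in the hypothalamus IP. In the other comparisons the range over the same alternatives is given beside the count reported. Brown fat over liver inputs had 63 to 284 higher (117) and 26 to 91 lower (87), brown fat over muscle inputs 57 to 365 higher (101) and 7 to 104 lower (77), and liver over muscle inputs 91 to 219 higher (122) and 57 to 145 lower (121). In the IPs, hypothalamus over brown fat had 68 to 202 higher (69) and 61 to 168 lower (103), over liver 72 to 154 higher (78) and 23 to 108 lower (66), and over muscle 64 to 165 higher (75) and 25 to 107 lower (71). Brown fat over liver IPs had 48 to 129 higher (78) and 8 to 41 lower (17), brown fat over muscle IPs 25 to 146 higher (63) and 11 to 57 lower (23), and liver over muscle IPs 11 to 50 higher (27) and 33 to 63 lower (42). The interactions had as few as 2 higher (136) and 5 to 187 lower (9) minus brown fat, 3 to 78 higher (80) and 1 to 50 lower (3) minus liver, and 2 to 59 higher (55) and 0 to 31 lower (1) minus muscle. With the replicate block, differences of the miR-7a-5p to miR-7b-5p ratio within a mouse were 4.2 in brown fat, 1.74 in liver, 2.66 in muscle and -0.25 in hypothalamus, where 4 or 5 pairs cannot pass 0.05. Unless its own construction shows it (fewer entries or fewer libraries), the cause of a change was not tested. Depth limits miR-7a-1-3p everywhere and miR-7b-5p and miR-375-3p in the IPs outside hypothalamus, where few counts a library stand behind each level.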
